A study of Sus scrofa with 18 samples.

Results

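The 10 immediate early genes FOS, FOSB, JUNB, EGR1, EGR2, EGR3, ARC, NR4A1, NPAS4 and DUSP1 were described in whole fetal pig brain, from RNA-seq counts of 18 fetuses. They were taken by gene name, and each name matched exactly 1 of the 31908 genes counted. All 10 were among the 16325 genes tested after a filter on low counts. The fetuses were collected on gestation day 45, 60 or 90 (GD45, GD60 and GD90) from Landrace x Large White gilts bred to LR-M6, with 3 females and 3 males a day and no treatment. The design compares gestation days and sexes. Each library is 1 whole brain, so fewer cells of a type and less RNA per cell cannot be told apart. All dams were killed at an abattoir by electrical stunning and exsanguination. The tract was carried from the abattoir to the laboratory before the brains were dissected, and the time to lysis is not given in the sources used here.

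Immediate early genes are transcribed within minutes of a stimulus, without new protein synthesis, from promoters held ready by factors such as SRF and CREB. Most encode transcription factors that start later programs, and DUSP1 ends the MAP kinase signal that starts them. In the brain, neuronal activity and calcium entry induce them, and growth factors and stress do so in many other cells. Their transcripts are short-lived, so a steady-state level reflects the time shortly before sampling.

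Libraries held 15118843 to 19729783 counts on genes (median 16413097). Each gestation day had 3 values of litter size in the labels, each shared by exactly 1 female and 1 male. These 9 pairs are called litters here, although the labels do not name the dams. The GD45 litter of 8, which holds female replicate 18 and male replicate 17, stood apart. Its brains weighed on average 41.0% of the mean of the other 4 GD45 brains. Male replicate 17 also had the lowest TMM normalization factor of the 18 libraries (0.849) and the strongest tilt of coverage towards the last exons of genes. Over 6989 genes, the median log2 ratio of the last to the first exon, relative to each gene's mean over libraries, was 1.06 in that library and between -0.54 and 0.50 in the other 17. Where the day comparisons and the correlations rest on this litter, they are given with and without it.

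The members' 5′ flanks were read from the Sscrofa11.1 sequence of RefSeq, the build on which the counts were made, as the 500 bases before each gene's start in the deposited table. The sequences below are shown because the factors that induce these genes bind such elements. A CArG box, the motif of SRF, lay before 4 of the 10 members (FOS, FOSB, EGR1 and EGR3) and before 3.02% of the 30438 genes with a full window. The full cAMP response element TGACGTCA, a motif of CREB, lay before DUSP1 and before 1.70% of genes. Its shorter form TGACG, on either strand and also counted where it is part of the full element, lay before 8 members and 26.8% of genes. TATAAA lay before FOS, FOSB and JUNB and before 25.3% of genes. ARC and EGR2 held none of these letters in the window. These matches describe letters only.

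The FOS flank is the 300 bases up to its start, chr7:98449049-98449348, on the plus strand. Capitals mark, from left to right, the CArG box at -297, TGACG on the minus strand at -280, TGACG on the plus strand at -46 and TATAAA at -15, counted from the start of the gene. Of the same set, the CArG boxes of FOSB (chr6:51837436-51837465, plus strand) and EGR3 (chr14:6948941-6948970, minus strand) lay at -273 and -276. EGR1 had 5 of them, more than any other member, and those at -435, -397, -381, -113 and -91 are shown from chr2, where the outermost stretches are chr2:140440976-140441005 and chr2:140441320-140441349. The DUSP1 element is at chr16:51457861-51457890, at -148. In the single-motif stretches of 30 bases, capitals mark the motif. All are written 5′ to 3′ on the gene's strand.
FOS: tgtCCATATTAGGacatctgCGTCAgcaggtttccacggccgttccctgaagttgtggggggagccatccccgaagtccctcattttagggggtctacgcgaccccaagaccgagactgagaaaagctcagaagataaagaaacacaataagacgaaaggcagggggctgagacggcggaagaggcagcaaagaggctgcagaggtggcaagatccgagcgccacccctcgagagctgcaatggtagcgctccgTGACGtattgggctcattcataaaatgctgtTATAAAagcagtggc
FOSB: gcgccgagctCCTTATATGGctaattgcgt
EGR3: ctttgtctgtCCATATATGGgcagctacgt
EGR1 at -435: cccggaaacgCCATATAAGGagcaggaagg
EGR1 at -397: ccggaaccacCCTTATTTGGgcagcgcctt
EGR1 at -381: ttgggcagcgCCTTATTTGGagcgccccga
EGR1 at -113: gccggtcttgCCATATTAGGgcttcctgct
EGR1 at -91: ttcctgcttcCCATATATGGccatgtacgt
DUSP1: ggcagggcgggTGACGTCAccacaccggtc

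The start used matters for this search. RefSeq places the start of FOS 159 bases and that of EGR3 177 bases further downstream, so those windows lie outside the RefSeq genes. RefSeq places the starts of EGR1, FOSB, DUSP1 and JUNB upstream of the deposited ones, so that their windows overlap the RefSeq genes in whole or in part. The deposited JUNB is 1 exon of 1044 bases (chr2:66214594-66215637, minus strand), and its window begins at that exon. The deposited start of NR4A1 lies 17698 bases upstream of the RefSeq entry, which RefSeq lists as a pseudogene.

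Levels of different genes can be compared only per length, as FPKM, the count scaled by the gene's length and the library's depth. The mean FPKM over the 18 libraries was highest for DUSP1 (48.7), followed by NR4A1 (19.6), JUNB (16.3), FOS (13.6) and EGR1 (9.94). ARC (4.98), EGR3 (1.66) and FOSB (1.54) were lower, and EGR2 (0.403) and NPAS4 (0.203) were lowest. The order depends on the annotated lengths, which are 4915 bases for FOS and 1044 bases for JUNB. JUNB shares 331 of its 1044 exon bases with HOOK2 on the other strand. HOOK2 had a mean of 18.1 CPM, with 16.3 CPM at GD45 and 19.4 CPM at GD90. Because the strand setting of the counting is not given in the sources used here, it is not known how reads in these bases were assigned, or whether they were counted. Comparisons within a gene use CPM, the counts scaled to a common depth, after TMM normalization.

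FOS, FOSB and JUNB encode subunits of AP-1, the dimer that carries the early response to its target genes. FOS (chr7:98449349-98455554, plus strand) was well expressed at every gestation day. In each set of 3 values given here, females and males are listed in the same litter order, by litter sizes 16, 17 and 8 at GD45, by 13, 15 and 8 at GD60, and by 10, 11 and 18 at GD90. At GD45, FOS had 71.7, 65.3 and 34.6 CPM in females and 62.6, 79.8 and 33.3 CPM in males. At GD60, FOS had 71.6, 79.3 and 81.2 CPM in females and 82.4, 68.1 and 100.3 CPM in males. At GD90, FOS had 51.4, 60.4 and 79.8 CPM in females and 46.5, 61.7 and 73.1 CPM in males. The 2 lowest of the 18 values were those of the GD45 litter of 8, and the ranges of all 3 days overlapped. FOS passed no day comparison by the quasi-likelihood test of edgeR, adjusted by Benjamini-Hochberg over all genes tested (adjusted p = 0.131 for GD60 against GD45, 0.16 for GD90 against GD60 and 0.697 for GD90 against GD45). The contrast of GD90 with GD45 had a log2 fold change of 0.10 ± 0.21 (SE). Without the GD45 litter of 8, the step from GD60 to GD90 became a call, at -0.38 (adjusted p = 0.0219).

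FOSB (chr6:51837719-51844531, plus strand), which forms AP-1 dimers as FOS does, had the largest fall of the members between GD60 and GD90. At GD45, FOSB had 6.94, 5.78 and 1.84 CPM in females and 7.96, 6.02 and 2.33 CPM in males. At GD60, FOSB had 7.78, 16.6 and 5.17 CPM in females and 5.77, 9.21 and 8.77 CPM in males. At GD90, FOSB had 2.82, 4.04 and 4.70 CPM in females and 2.70, 3.02 and 4.07 CPM in males. All 6 GD90 values lay below all 6 GD60 values, with a log2 fold change of -1.32 ± 0.35 (SE; edgeR adjusted p = 0.00602). GD90 against GD45 had -0.55 ± 0.35 (adjusted p = 0.195), and without the GD45 litter of 8 this became a call, at -0.93 (adjusted p = 0.00923).

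JUNB, the Jun partner in AP-1, was higher at GD90 than at GD45. At GD45, JUNB had 15.7, 14.6 and 8.63 CPM in females and 17.3, 14.7 and 10.4 CPM in males. At GD60, JUNB had 14.9, 18.9 and 14.3 CPM in females and 15.6, 19.4 and 22.5 CPM in males. At GD90, JUNB had 20.0, 21.7 and 22.8 CPM in females and 18.97, 16.6 and 19.8 CPM in males. Between GD45 and GD90 the ranges overlapped, because the lowest GD90 value (16.6) lay under the highest GD45 value (17.3). The log2 fold change over the whole interval was 0.55 ± 0.16 (SE; edgeR adjusted p = 0.00618), and neither shorter step passed the test (adjusted p = 0.119 and 0.36). Without the GD45 litter of 8 the call over the whole interval held, and in males alone it was lost. The lowest log2 fold change over 27 alternatives was 0.34.

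EGR1, EGR2 and EGR3 are zinc finger transcription factors of 1 family, and they had unlike courses. EGR1 (chr2:140441421-140445296, plus strand), the member with 5 CArG boxes above, is widely used as a marker of neuronal activity. At GD45, EGR1 had 29.1, 24.2 and 16.2 CPM in females and 25.7, 28.6 and 9.40 CPM in males. At GD60, EGR1 had 29.1, 42.5 and 30.4 CPM in females and 31.5, 25.3 and 36.6 CPM in males. At GD90, EGR1 had 40.0, 35.1 and 48.2 CPM in females and 33.8, 33.8 and 35.8 CPM in males. All 6 GD90 values exceeded all 6 GD45 values, with a log2 fold change of 0.76 ± 0.21 (SE; edgeR adjusted p = 0.00614). Without the GD45 litter of 8 the call held, at a log2 fold change of 0.47.

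EGR2 (chr14:66284577-66291306, minus strand), known for its part in hindbrain patterning and in Schwann cells, was near 1 CPM throughout. At GD45, EGR2 had 1.22, 1.06 and 0.978 CPM in females and 1.69, 0.877 and 0.389 CPM in males. At GD60, EGR2 had 0.718, 2.01 and 1.097 CPM in females and 0.693, 1.37 and 1.41 CPM in males. At GD90, EGR2 had 1.50, 1.46 and 1.32 CPM in females and 1.12, 1.60 and 0.656 CPM in males. These values rest on 5 to 32 counts a library, and the 3 ranges overlapped almost completely. EGR2 passed no day comparison, and the 95% interval for GD90 against GD45 ran from -0.44 to 0.99 on the log2 scale.

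EGR3 (chr14:6945936-6948684, minus strand), which neuronal activity induces as it does EGR1, had the largest fitted change of the members in the fit of all 18 libraries. At GD45, EGR3 had 0.459, 0.389 and 0.288 CPM in females and 0.844, 1.13 and 0 CPM in males. At GD60, EGR3 had 1.86, 1.94 and 0.836 CPM in females and 2.19, 1.49 and 0.960 CPM in males. At GD90, EGR3 had 2.28, 6.76 and 4.17 CPM in females and 6.40, 6.90 and 6.63 CPM in males. All GD90 values lay above all values of the earlier days, and the GD45 and GD60 ranges overlapped. The log2 fold change was 1.58 ± 0.45 from GD45 to GD60 (SE; edgeR adjusted p = 0.0221), 1.80 ± 0.39 from GD60 to GD90 (0.00127) and 3.38 ± 0.43 over the whole interval (4.85e-06). Counts were 0 to 18 a library at GD45 and 38 to 112 at GD90, and the library with 0 counts, male replicate 17, allows up to 3 counts. The earlier step was no longer called when female replicate 18 of GD45, or 1 of replicates 3, 4 or 5 of GD60, was left out.

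ARC and NPAS4 are the members most tied to neurons, and both rose. ARC (chr4:1517980-1521403, plus strand) encodes a protein of the postsynaptic side that governs glutamate receptor endocytosis. At GD45, ARC had 8.42, 7.67 and 6.79 CPM in females and 6.85, 6.39 and 11.0 CPM in males. At GD60, ARC had 10.1, 9.29 and 11.13 CPM in females and 10.6, 12.5 and 14.5 CPM in males. At GD90, ARC had 28.5, 30.4 and 25.4 CPM in females and 23.4, 21.7 and 20.0 CPM in males. All 6 GD90 values were above the 12 values of the earlier days. ARC had the smallest adjusted p of the members in all 3 comparisons, with log2 fold changes of 0.53 ± 0.13 (edgeR adjusted p = 0.0119), 1.13 ± 0.13 (4.08e-06) and 1.66 ± 0.14 (SE; 2.21e-08). Both of its long exons rose, the exon at chr4:1517980-1519979 by 1.83 and that at chr4:1520594-1521403 by 1.57, as the log2 ratio of the GD90 mean to the GD45 mean.

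NPAS4 (chr2:5990327-5995929, minus strand) encodes a transcription factor that responds to calcium entry rather than to growth factors. At GD45, NPAS4 had 0.102, 0.278 and 0.230 CPM in females and 0.0527, 0 and 0.466 CPM in males. At GD60, NPAS4 had 0.539, 0.627 and 0.313 CPM in females and 0.462, 0.777 and 0.192 CPM in males. At GD90, NPAS4 had 0.959, 1.59 and 1.19 CPM in females and 1.29, 1.42 and 1.44 CPM in males. The GD90 values lay above all values of both earlier days. The log2 fold change was 1.42 ± 0.42 from GD60 to GD90 (SE; edgeR adjusted p = 0.0119) and 2.85 ± 0.49 from GD45 to GD90 (9.36e-05). These folds rest on 0 to 6 counts a library at GD45 and 16 to 24 at GD90. The step from GD45 to GD60 had 1.43 ± 0.52 (edgeR adjusted p = 0.0728), and without male replicate 17 of GD45 it became a call, at 2.50 (adjusted p = 0.0037). Without that library, GD90 against GD45 was 3.92, and without the whole GD45 litter of 8 it was 3.97.

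NR4A1, an orphan nuclear receptor, and DUSP1, a phosphatase that inactivates MAP kinases, were the most abundant members per length, and neither changed much. At GD45, NR4A1 had 55.5, 49.4 and 29.1 CPM in females and 52.7, 62.7 and 33.9 CPM in males. At GD60, NR4A1 had 49.5, 49.2 and 49.5 CPM in females and 53.2, 61.6 and 61.5 CPM in males. At GD90, NR4A1 had 52.0, 56.3 and 75.03 CPM in females and 41.6, 49.7 and 64.3 CPM in males. NR4A1 (chr5:17385390-17408514, plus strand) passed no day comparison, and the 95% interval for GD90 against GD45 was -0.10 to 0.61 on the log2 scale.

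DUSP1 lies at chr16:51458020-51461086 on the plus strand, behind the full cAMP response element shown above. At GD45, DUSP1 had 118, 105 and 82.1 CPM in females and 101, 98.4 and 87.7 CPM in males. At GD60, DUSP1 had 90.4, 92.1 and 109.7 CPM in females and 103, 101 and 118 CPM in males. At GD90, DUSP1 had 85.5, 81.6 and 103 CPM in females and 64.96, 74.4 and 90.6 CPM in males. The ranges overlapped, and the fall from GD60 to GD90 was small, at a log2 fold change of -0.30 ± 0.11 (SE; edgeR adjusted p = 0.0331). That call was lost when any of 6 libraries was left out in turn, GD60 replicates 15 and 16 and GD90 replicates 1, 2, 7 and 8, with log2 fold changes that all stayed below 0. It was also lost with the counts of littermates summed, 3 litters a day (-0.31, adjusted p = 0.0943). GD90 against GD45 had -0.25 ± 0.11 (adjusted p = 0.058) and was called without the GD45 litter of 8, at -0.36 (adjusted p = 0.00738).

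**Figure D1:**
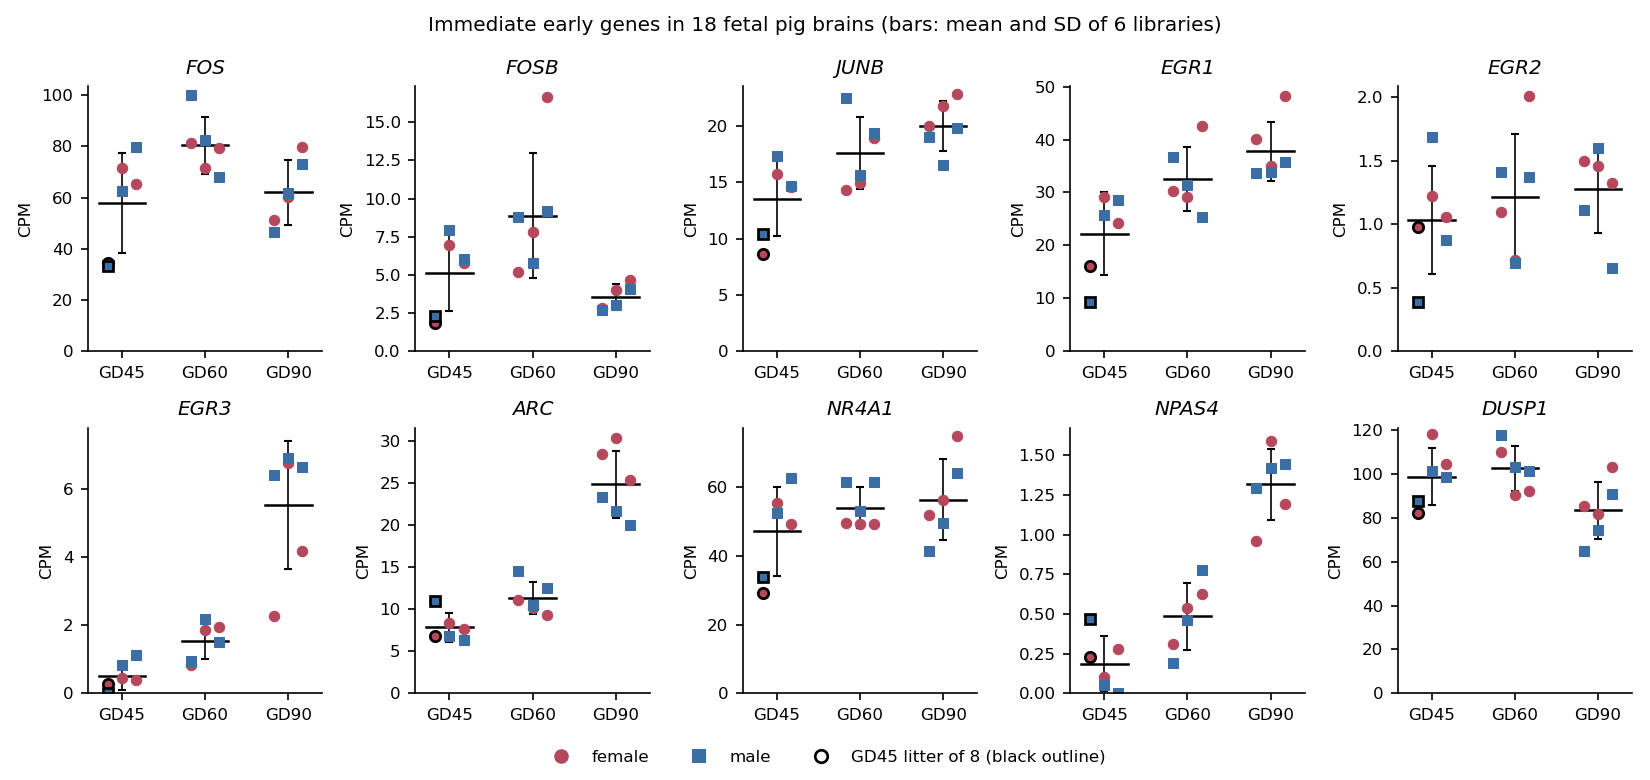
CPM (y axis, from 0, with a scale of its own in each panel) of the 10 members in 18 libraries by gestation day (x axis); circles are females, squares males, points are placed by litter, and bars give the mean and SD of 6 libraries. The 6 GD90 points of EGR3, ARC and NPAS4 lie above all earlier points, and the points outlined in black, from the GD45 litter of 8, are the 2 lowest of that day in the FOS, FOSB, JUNB, EGR1, EGR3, NR4A1 and DUSP1 panels.

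Set against all genes, the counts of changed members were not large. From GD45 to GD60, 2 of 10 members were called (EGR3 and ARC, both higher), where 16.7% of the 16325 genes tested were called. From GD60 to GD90, 5 were called (EGR3, ARC and NPAS4 higher, FOSB and DUSP1 lower), beside 42.4% of all genes. From GD45 to GD90, 5 were called and all were higher (JUNB, EGR1, EGR3, ARC and NPAS4), beside 57.5%. Without the GD45 litter of 8, the members called numbered 3, 6 and 7 in the same order of comparisons. The 7 for GD90 against GD45 then included FOSB and DUSP1, both lower. The shares over all genes without this litter are not given here. With that litter included, the median log2 fold change over the whole interval was 0.41 for the 10 members and -0.03 for all genes tested. Members whose 6 libraries of 1 day did not overlap with the 6 of the other numbered 0 for GD60 against GD45 (8.47% of all genes), 4 for GD90 against GD60 (24.1%) and 4 for GD90 against GD45 (33.8%). The comparisons share libraries and are not independent of each other.

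**Figure D2:**
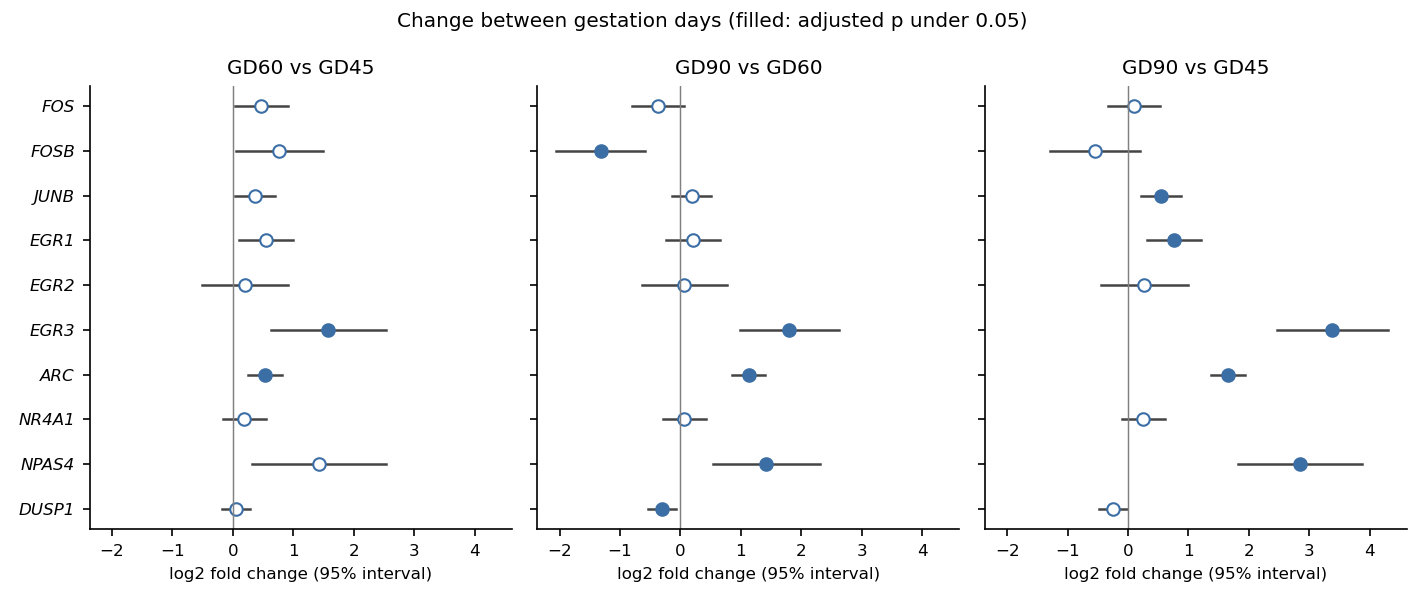
Log2 fold change (x axis) of each member (y axis) with its 95% interval from edgeR in the 3 day comparisons; filled circles mark an adjusted p under 0.05. EGR3, ARC and NPAS4 reach 3.38, 1.66 and 2.85 for GD90 against GD45, while the intervals of FOS, FOSB, EGR2 and NR4A1 include 0 in that panel.

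No member passed the test between the sexes. In the contrast of males with females averaged over gestation days, 0 of 10 members were called by edgeR (0.116% of all genes tested were), none had an unadjusted p under 0.05, and DESeq2 called 0 as well. The interval was narrowest for DUSP1, -0.24 to 0.13 on the log2 scale. For ARC the log2 fold change was 8.1e-05. No interval is given for it, because the SE is derived from the fold change and its test statistic and is unreliable so near 0. Intervals were wider for EGR3 (-0.25 to 1.21), for NPAS4 (-0.90 to 0.73) and for FOSB (-0.72 to 0.47), so differences within these bounds cannot be told from none. The change with gestation day did not differ by sex for any member at an adjusted p under 0.05, in either step (0% of all genes tested were called in both steps by edgeR, and DESeq2 called 0 members). ARC came nearest: its 3 GD90 females (25.4 to 30.4 CPM) lay above its 3 GD90 males (20.0 to 23.4 CPM), and at GD60 the order of the means was the other way. The interaction for GD60 to GD90 was -0.67 ± 0.26 (SE, males relative to females; unadjusted p = 0.0207, adjusted p = 0.216). It became a call without male replicate 17 of GD45, and without both fetuses of the GD45 litter of 8, neither of which enters that contrast other than through the shared estimate of spread and the normalization.

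The GD45 litter of 8 was low for most members. Both of its fetuses lay below all 4 other GD45 libraries for 7 of 10 members, FOS, FOSB, JUNB, EGR1, EGR3, NR4A1 and DUSP1, which held for 11.4% of all genes tested. The mean of the litter was 0.313 times that of the other 4 for FOSB, 0.475 times for EGR1, 0.486 times for FOS, 0.572 times for NR4A1, 0.612 times for JUNB and 0.804 times for DUSP1. The median ratio was 0.568 over the 10 members and 1.00 over all genes tested. ARC (1.21 times) and NPAS4 (3.22 times, on at most 6 counts a library) were not low. No test was made of this litter, because its 2 fetuses share a dam by the labels' litter size and the comparison was chosen after their values were seen.

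**Figure D3:**
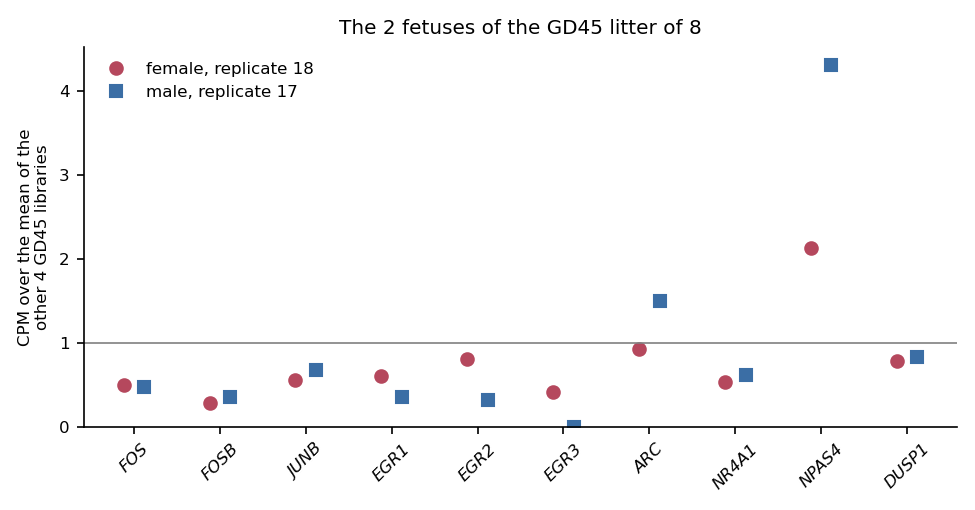
CPM of female replicate 18 (circles) and male replicate 17 (squares) of the GD45 litter of 8 divided by the mean of the other 4 GD45 libraries (y axis, from 0; the line marks 1), for each member (x axis). Both points lie below 1 for 8 members, all but ARC and NPAS4.

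The exon counts describe where in the genes these libraries were low. Reads counted on exons made up 85.3% of the gene count for NR4A1 and 93.4% for DUSP1, while FOS, most of whose 11 annotated exons overlap another exon of the gene, kept 8.63%. In male replicate 17, the NR4A1 exon at chr5:17403086-17403963 was at 0.290 times the mean of the other 4 GD45 libraries and its last exon, chr5:17407662-17408514, at 0.991 times. In female replicate 18 the same exons were at 0.499 and 0.595 times. For DUSP1, the exon at chr16:51458103-51458628 was at 0.455 times and the last exon, chr16:51460045-51461086, at 1.08 times in male replicate 17, against 0.750 and 0.781 times in female replicate 18. In male replicate 17, the NR4A1 exons between these were at 0.907, 0.446, 0.489 and 0.861 times. The DUSP1 exons between were at 0.831 and 0.667 times. Female replicate 18 was low in both the named 5′ and the last exons of the 2 genes. The last exons of FOSB (0.324 times in replicate 18, 0.250 times in replicate 17) and EGR1 (0.597 and 0.375 times) were low in both. Over 6989 genes, the median log2 ratio of the litter to the other 4 was -0.37 in the first exon and 0.19 in the last. By library, the last-to-first log2 ratio was 1.06 in male replicate 17. In female replicate 18 it was 0.16, inside the -0.33 to 0.47 of the other GD45 libraries. The part of this tilt in the low levels was not tested.

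Some markers of cell types also differed in the same libraries, and others did not. The summed level of 8 markers of mature neurons was 767 CPM in male replicate 17 and 939 CPM in female replicate 18, against 950 to 1146 CPM in the other GD45 libraries, and that of 4 astrocyte markers was 126 and 158 CPM against 180.0 to 249 CPM. Both fetuses lay below the other 4 for 3 of 8 neuronal, 3 of 4 astrocyte and 3 of 4 oligodendrocyte markers, beside 11.4% of all genes tested. The 3 choroid plexus markers summed to 1767 and 1329 CPM against 897 to 1253 CPM, and 2 of them had both fetuses above the other 4. The 6 erythroid markers summed to 791 CPM in male replicate 17 and to 249 CPM in female replicate 18, against 293 to 363 CPM. Their part in the low values was not tested. Of 30 further early genes tested, 14 had both fetuses of the litter below the other 4, beside 11.4% of all genes tested, and 2 had both above. The share above was not computed over all genes. Of 11 heat shock genes 2 were below and 1 above, and the same counts held for 11 genes induced by hypoxia, near the share of all genes below.

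Some members rose and fell together in single fetuses beyond gestation day and sex, and much of that rested on the same litter. The deviation of each library's log2 CPM (prior count 2) from the mean of its group of 3 was compared over the 45 pairs of members. The median Pearson r was 0.47 over the 45 pairs and -0.001 over all pairs of genes tested, whose quartiles were -0.34 and 0.34. Of the 45 pairs, 29 had an r above 0, and 26 had without the GD45 litter of 8. Leaving out male replicate 17 of GD45 alone lowered the median to 0.19. Leaving out only its littermate, female replicate 18, lowered it to 0.40. In a permutation test within the 6 groups over all arrangements, two-sided and adjusted over the 45 pairs, 6 pairs had an adjusted p under 0.05, all with a positive r. Littermates are not independent, so these p-values are too small where a litter moves as 1. Over the 9 litter means, the median r was 0.53 and 0 pairs passed.

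FOS went with NR4A1 (r = 0.93, rho = 0.90, permutation p = 0.00122, adjusted p = 0.0137), with EGR1 (r = 0.86, rho = 0.82, permutation p = 0.000707, adjusted p = 0.0106) and with DUSP1 (r = 0.81, rho = 0.87, permutation p = 0.000493, adjusted p = 0.0106). FOSB went with JUNB (r = 0.93, rho = 0.93, permutation p = 0.000279, adjusted p = 0.0106) and with NR4A1 (r = 0.79, rho = 0.76, permutation p = 0.00221, adjusted p = 0.0166). NR4A1 went with DUSP1 (r = 0.82, rho = 0.79, permutation p = 0.00193, adjusted p = 0.0166). The permutation p of rho lay between 3e-04 and 0.00472 and its adjusted value between 0.00819 and 0.0311 for these pairs. For these 6 pairs the 2 libraries farthest from the median of the gene named first in the pair were replicates 17 and 18 of GD45. Without them, r was 0.81 for FOS with NR4A1, 0.79 for FOS with DUSP1, 0.82 for FOSB with JUNB and 0.77 for NR4A1 with DUSP1. It fell to 0.61 for FOS with EGR1 and to 0.42 for FOSB with NR4A1. In these 16 libraries the median over the 45 pairs was 0.12 and 0 pairs passed the permutation test, and in the 12 libraries of GD60 and GD90 it was 0.08 and 0 passed.

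ARC and NPAS4 had mostly negative values of r. Over 18 libraries, the r of ARC with the other members ran from -0.76 (EGR3) to 0.36 (NPAS4), and that of NPAS4 from -0.77 (EGR1) to 0.36. None of these pairs passed the permutation test, and the lowest adjusted p was 0.0706, for NPAS4 with DUSP1 (r = -0.47). Without the litter of 8, the r of ARC ran from -0.47 (EGR3) to 0.36 (EGR2). That of NPAS4 ran from -0.46 (DUSP1) to 0.56 (EGR3). The r of NPAS4 with EGR3 was -0.44 over 18 libraries, 0.56 without the litter of 8 and 0.73 over the 12 libraries of GD60 and GD90. The spread between fetuses of a group, as the SD of log2 CPM with the litter of 8 included, was 0.89 for EGR3, 0.69 for FOSB, 0.65 for NPAS4, 0.57 for EGR2, 0.44 for EGR1 and 0.42 for FOS. It was 0.33 for NR4A1, 0.29 for JUNB, 0.22 for ARC and 0.19 for DUSP1, beside a median of 0.28 over all genes tested. FOS and EGR1 each had a larger SD than 94.4% of the 500 genes nearest in level, EGR3 than 93.8%, FOSB than 90.6% and NR4A1 than 86.2%. The share was 63.9% for JUNB, 63.5% for EGR2, 53.7% for NPAS4, 49.9% for DUSP1 and 36.3% for ARC. The SDs of EGR2 and NPAS4 rest on few counts, and that of EGR3 includes the library with 0 counts.

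**Figure D4:**
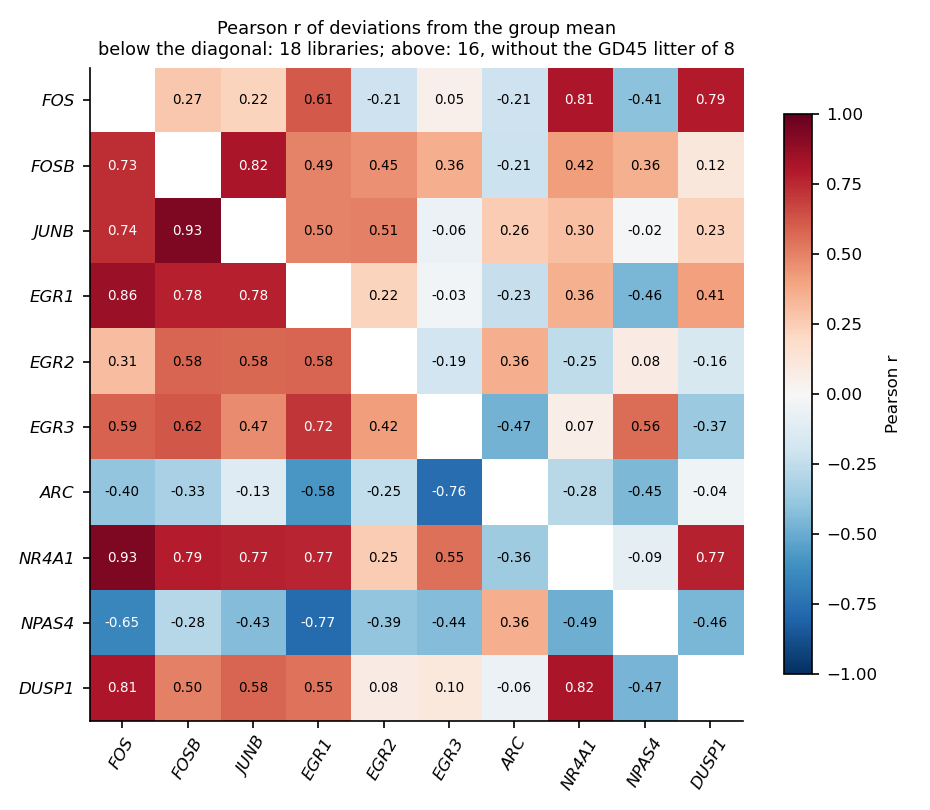
Pearson r of deviations from the group mean (colour and printed value) for each pair of members, below the diagonal over 18 libraries and above it over 16, without the GD45 litter of 8. FOS, NR4A1 and DUSP1 keep values of 0.77 to 0.81 above the diagonal, and FOSB with JUNB keeps 0.82.

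Females and males of a litter were compared in the same deviations over the 9 litters. NR4A1 had an r of 0.90 between littermates (rho = 0.85), FOS 0.87 (rho = 0.83), DUSP1 0.80 (rho = 0.72) and FOSB 0.78 (rho = 0.77). The r was 0.68 for JUNB, 0.55 for EGR1, 0.53 for EGR2, 0.38 for EGR3 and for NPAS4, and -0.25 for ARC. The median over members was 0.62, and that over all genes tested was 0.11. In the exact permutation test within gestation day (smallest possible p 0.00463, two-sided), DUSP1 (p = 0.0278), FOS (p = 0.0324) and EGR3 (p = 0.037) had the lowest values, and 0 of 10 members passed after adjustment over the 10 (adjusted p = 0.123 for each of these 3). The exact permutation p of rho was 0.0741 for DUSP1, 0.0463 for FOS, 0.0463 for FOSB and 0.088 for NR4A1. For DUSP1 the female and the male lay on the same side of their group means in 9 of 9 litters, and for FOS in 7. Without the 2 litters whose females lay farthest out, those of 8 and 16 at GD45, the FOS value was 0.73, that of NR4A1 0.91, that of JUNB -0.01 and that of EGR1 -0.58. The means were taken again without these litters, which leaves the remaining GD45 litter no deviation. These values therefore rest on the GD60 and GD90 litters alone. Without the litter of 8 alone, the median over members fell to 0.48. In those 8 litters NR4A1 and DUSP1 had 0.80, FOS 0.73, FOSB 0.59, EGR2 0.56, EGR3 0.39, JUNB and NPAS4 0.38, ARC 0.20 and EGR1 0.09. At GD90, both sexes had the order litter of 10, then 11, then 18 for FOS (46.5 to 51.4, 60.4 to 61.7 and 73.1 to 79.8 CPM), and the same order held for NR4A1. For DUSP1 the litter of 18 was the highest at GD90 in both sexes, with 103 and 90.6 CPM.

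**Figure D5:**
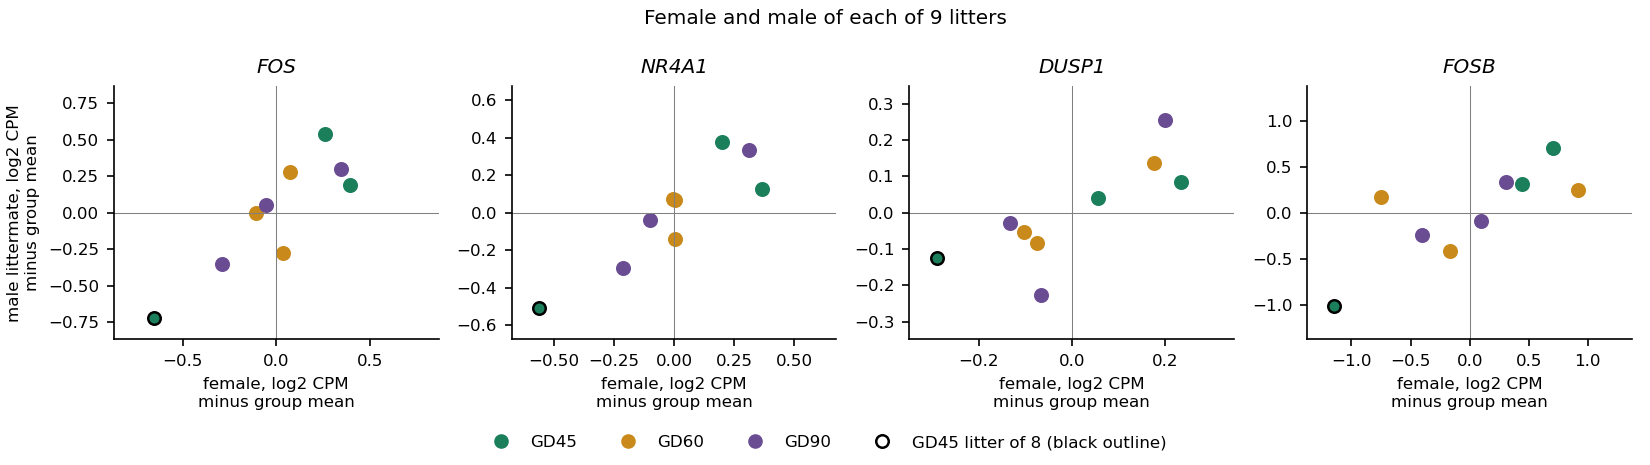
Deviation of log2 CPM from the group mean in the female (x axis) and the male (y axis) of each of 9 litters, for FOS, NR4A1, DUSP1 and FOSB. Points run from lower left to upper right in each panel, with r from 0.78 to 0.90, and the point outlined in black, the GD45 litter of 8, is lowest in 3 of the 4 panels on the y axis.

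The genes whose deviations were most like the mean deviation of the 10 members, among 12794 named genes of at least 1 CPM, were CAMK2B (r = 0.90 over 18 libraries), SPTSSB (0.89), EVI2B (0.87), NAALAD2 (0.86) and NOD1 (0.85). CAMK2B, a subunit of calcium/calmodulin-dependent kinase II, had a mean of 498 CPM. Without replicates 17 and 18 of GD45 the values fell to 0.58, 0.53, 0.57, 0.55 and 0.42.

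Further early genes behaved as a mixed group. Of 30 tested (32 listed), 5 were called higher and 3 lower from GD45 to GD60, 4 and 8 from GD60 to GD90, and 7 and 6 from GD45 to GD90 by edgeR. Over all genes tested, 16.7%, 42.4% and 57.5% were called in these comparisons. EGR4, the fourth member of the EGR family, rose from a mean of 0.484 CPM at GD45 to 1.50 at GD60 and 10.7 at GD90, a log2 fold change of 4.44 ± 0.33 (SE; edgeR adjusted p = 7.54e-09). DUSP4, a phosphatase related to DUSP1, fell from 360.1 to 225 and 63.6 CPM, at -2.50 ± 0.13 (8.73e-11). Of 20 tested factors and kinases that act on early gene promoters, 8 were higher and 4 lower at GD90 than at GD45. This lies near the share over all 16325 genes tested, of which 4613 were higher and 4782 lower (57.5%). MEF2C, a transcription factor of neurons, rose by a log2 fold change of 2.36 ± 0.18 (SE; edgeR adjusted p = 8.58e-09) and CAMK4, a calcium-dependent kinase that acts on CREB, by 1.73 ± 0.14 (1.87e-08).

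Of 15 genes that follow the early wave, 10 were higher and 2 lower at GD90 than at GD45, where 57.5% of all genes tested were called. PTGS2, the inducible cyclooxygenase, had means of 0.382, 0.374 and 2.67 CPM at the 3 days, and PCSK1, a protease that processes prohormones, had 8.23, 6.99 and 37.6 CPM. Their log2 fold changes over the interval were 2.74 ± 0.43 (SE; edgeR adjusted p = 4.54e-05) and 2.18 ± 0.20 (1.21e-07). Stress lists were counted in the same comparison, to be read beside the same share of all genes. Of 11 heat shock genes 1 was higher (HSPH1, log2 fold change 1.00) and 2 lower, with HSPE1 at -0.65. Of 11 hypoxia-induced genes 5 were higher, led by LDHA (1.77) and EGLN3 (1.06), and 3 lower. Of 7 glucocorticoid-induced genes 3 were higher, among them KLF9 (4.26) and ZBTB16 (1.77), and 1 was lower.

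RNA of cell type markers changed over the same days as ARC, EGR3 and NPAS4. All 8 markers of mature neurons, led by CAMK2A (log2 fold change 3.40) and GRIN2A (2.83), were called higher at GD90 than at GD45 by edgeR, and their summed level was 767 to 1146 CPM at GD45, 1198 to 1433 CPM at GD60 and 3369 to 3725 CPM at GD90. The median log2 fold change of these markers was 1.86, beside 1.66 for ARC, 2.85 for NPAS4 and 3.38 for EGR3. All 4 progenitor markers tested were lower, led by EOMES (-5.32) and TOP2A (-2.18), and all 4 of oligodendrocytes, 4 of astrocytes, 5 of microglia and 4 of mural cells were higher. Of 6 endothelial markers 4 were higher, of 6 erythroid markers 5 were lower, and of 3 choroid plexus markers 2 were lower. Of 4 meningeal markers 1 was higher and 2 lower, of 4 skeletal muscle markers 2 were higher, and of 2 pituitary markers 0 passed. In this comparison 57.5% of all genes tested were called in either direction. The 3 pituitary markers counted, 2 of which were tested, summed to 0 to 27.3 CPM at GD45, 0.0598 to 62.6 CPM at GD60 and 0.0599 to 0.470 CPM at GD90. The part of these markers' cell types in the members' changes was not tested.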

How the data were processed

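RNA-seq counts of whole brains from 18 pig fetuses were used. Per the study's methods, the authors trimmed reads with Trimmomatic, aligned them to Sscrofa11.1 with HISAT2 and counted them on Ensembl genes with featureCounts. The authors deposited raw read counts per gene and per exon, in 22 columns, and 4 libraries with 2 columns each were summed here. The deposited transcript table was not used. The options for strand and for reads matching several places are not given in the sources used here.

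Genes were filtered with filterByExpr (16325 of 31908 kept, 99.9% of counts), scaled by TMM and tested with edgeR 4.0.16 in R 4.3.3 (quasi-likelihood, 6 groups, contrasts averaged over sexes, Benjamini-Hochberg adjustment over all genes tested, threshold 0.05). Intervals are 95%. The day contrasts treat the 6 fetuses of a day as independent, although they form 3 pairs of littermates. Alternatives used DESeq2 1.42.0, other scalings and filters, fewer libraries, and the summed counts of littermates. Precision is limited by 15118843 to 19729783 counts a library, and a gene at 0 allows up to 3 counts. Motifs were searched with pysam 0.24.0. Fits were tested on simulated data. Groups came from the labels, and the 3 fetuses of a group came from different litters, while each litter gave 1 female and 1 male.

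The members and lists were chosen with earlier results of these data known. All members are named with their value in every library. Of each list, the 2 called genes with the largest log2 fold change between GD45 and GD90 are named for the gene lists and for the neuronal and progenitor markers, and the 5 genes most like the members by r.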

Additional observations from a re-analysis of the deposited data

Results flagged for a closer look

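FOSB in female GD60 replicate 5, from the litter of 15, stood at 16.6 CPM, and the next of the 6 GD60 libraries was at 9.21 CPM. The gap exceeded Dixon's 95% critical value for 6 samples. This was 1 of 30 checks (10 members on 3 days), and chance flags about 1 in 20 groups. Its male littermate had 9.21 CPM, the second highest FOSB value of the day.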

How the results depend on the processing

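ARC and EGR3 were called for GD90 against both earlier days, and NPAS4 for GD90 against GD45, under all 27 alternatives run for each. Leaving out 1 library at a time, the number of members called was 1 to 4 for GD60 against GD45, 4 to 5 for GD90 against GD60, 5 to 6 for GD90 against GD45, 0 for sex, 0 for the earlier sex-by-day step and 0 to 1 for the later. Without male replicate 14 of GD45, FOS and EGR1 were also called for GD60 against GD45. In females alone 0 members were called for GD60 against GD45 and 2 for GD90 against GD60. In males alone the counts were 0, 3 and, for GD90 against GD45, 3. With only the libraries of GD45 and GD60, 1 was called (ARC). Without the GD45 litter of 8, 1 member (ARC) was called in the later sex-by-day step. With littermates summed, 2, 4 and 5 members were called in the 3 day comparisons, and only the DUSP1 call for GD90 against GD60 was lost. The fit with the littermates as a replicate block called 0 members for sex, as did the fit without it, and changed no other call for sex. The cause of these changes was not tested.

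The number of pairs that moved together was 6 to 13 when 1 library was left out (11 without female GD60 replicate 5, 13 without female replicate 15, 11 without male replicate 4, 10 without male replicate 6 and 10 without male GD90 replicate 8), and 0 without the litter of 8, 0 without the 6 GD45 libraries (chosen after seeing the data) and 0 over litter means.

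Some uncalled differences near 0 changed sign. Leaving out 1 library, GD60 against GD45 ranged from -0.016 to 0.11 for DUSP1 (below 0 without female GD45 replicate 18) and from -0.031 to 0.53 for EGR2 (without female GD60 replicate 5). GD90 against GD60 ranged from -0.11 to 0.30 for EGR2 (below 0 without GD60 replicates 3 or 4 or GD90 replicate 8) and from -0.030 to 0.13 for NR4A1 (without GD90 replicates 9 or 10), and GD90 against GD45 from -0.048 to 0.24 for FOS (without GD45 replicates 17 or 18). Without the litter of 8, GD60 against GD45 was -0.0069 for EGR2, -0.031 for NR4A1 and -0.046 for DUSP1, and GD90 against GD45 was -0.18 for FOS. In females alone DUSP1 was -0.061 for GD60 against GD45, and in males alone GD90 against GD60 was -0.054 for JUNB, -0.035 for EGR2 and -0.18 for NR4A1.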
